A study of Caenorhabditis elegans with 2 samples.

Results

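The regions described here are the 1437 of 30000 pooled ChIP-seq entries for eGFP-ZAG-1 that overlapped a piRNA gene by 1 bp or more, and 1351 of them lay on chromosome IV. ZAG-1 is the ZEB-class transcription factor of Caenorhabditis elegans, with zinc fingers and a homeodomain, and acts in the differentiation of neurons. Chromatin from whole mixed-sex larvae of the first stage (L1) of strain OP83, which carries the unc-119(ed3) III mutation and the integrated transgene wgIs83 for eGFP-zag-1, was immunoprecipitated and sequenced in 2 biological replicates. Both replicates belong to 1 group and 1 strain, so no comparison between conditions was made, and whole larvae mix cells that express the transgene with cells that do not. The authors deposited a list of 30000 entries for the pooled replicates and for each replicate, described as peaks and background, and an optimal list of 478 peaks thresholded on the irreproducible discovery rate. Most entries of the long lists are therefore not called as bound.

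PIWI-interacting RNAs (piRNAs) of Caenorhabditis elegans, also called 21U-RNAs for their length and first base, bind the Piwi protein PRG-1 in the germline and direct the silencing of transposons and other foreign sequence. Each one comes from its own very short gene, most of which lie in broad clusters on chromosome IV. Many of these genes carry an upstream sequence with the letters CTGTTTCA and are transcribed with the help of SNPC-4, PRDE-1 and TOFU proteins. In an L1 larva the germline is only a few primordial germ cells.

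The sequences show the form of a piRNA gene and the base composition around it. The first set below gives 3 piRNA genes from regions named in the text, picked because they carry the upstream motif that most covered genes lack (it preceded 34.1% of those on IV), each with the 60 bases before it on the gene's own strand (WBcel235, the same build as ce11). Capitals mark the motif CTGTTTCA and the gene's 21 bases.
21ur-4386 (chrIV:5438626-5438646, minus strand): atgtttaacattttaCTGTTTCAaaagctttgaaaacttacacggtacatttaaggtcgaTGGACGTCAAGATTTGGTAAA
21ur-7446 (chrIV:16600355-16600375, plus strand): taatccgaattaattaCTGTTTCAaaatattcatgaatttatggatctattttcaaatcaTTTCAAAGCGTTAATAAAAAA
21ur-94 (chrIV:15606595-15606615, plus strand): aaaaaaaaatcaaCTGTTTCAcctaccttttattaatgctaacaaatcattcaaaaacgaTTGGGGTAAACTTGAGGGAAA
The motif began 45, 44 and 47 bases before these genes in the order given, and all 3 genes begin with T, the DNA letter for the U of 21U-RNAs.

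The second set gives the 201 bases around 1 summit over piRNA genes, and around 1 summit whose entry does not touch any, on the plus strand of WBcel235. Capitals mark piRNA gene bases in the first, and GAGAGA, read on the opposite strand, in the second.
Intergenic, 7 piRNA genes in the entry, chrIV:16600226-16600426: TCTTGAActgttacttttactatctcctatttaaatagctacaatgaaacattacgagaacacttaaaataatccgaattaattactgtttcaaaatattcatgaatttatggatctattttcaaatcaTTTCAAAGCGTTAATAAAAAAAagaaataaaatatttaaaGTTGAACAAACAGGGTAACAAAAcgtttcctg
Near the start of hsp-1, no piRNA gene, chrIV:17278465-17278665: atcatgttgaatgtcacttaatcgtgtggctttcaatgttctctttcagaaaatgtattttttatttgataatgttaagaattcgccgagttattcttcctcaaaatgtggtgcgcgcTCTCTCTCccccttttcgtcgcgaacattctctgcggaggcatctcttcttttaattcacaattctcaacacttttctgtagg
GC content was 24.9% in the intergenic window over piRNA genes, against 38.8% in the window near hsp-1, a gene for a heat shock protein. This pair differs more than the groups do, and its hsp-1 window comes from a peak of the optimal list. Median GC within 100 bp of the summit was 27.4% over piRNA genes and 32.8% in other entries of IV. The window of the region with the highest signal on IV had 39.8%.

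By the overlap rule, regions over piRNA genes followed the piRNA clusters along chromosome IV. The gene models hold 15363 piRNA genes, of which 14714 (95.8%) lie on IV. Chromosome IV held 1351 regions over them among 5592 pooled entries (24.2%), while chromosomes I, II, III, V and X held 15, 16, 13, 22 and 20 such regions. Of the 1351 regions, 1299 (96.2%, 95% Wilson interval 94.99 to 97.05%) lay in the 60 bins of 100 kb that hold 20 or more piRNA gene starts, against 925 of the 4241 other entries of IV (21.8%, 20.6 to 23.1%). These bins hold 14345 of the 14714 piRNA genes of IV, so the overlap rule largely set the share of regions in them. Of these dense bins, 21 lie in a left run from 4.8 to 7 Mb with 2807 piRNA genes, 38 in a right run from 13.5 to 17.3 Mb with 11534, and 1 in neither. The left run held 325 of the regions, the right run 970, and the rest of IV 56. Intervals throughout cover counting error only, and neighbouring entries and piRNA genes can overlap each other, so neither are independent.

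**Figure D1:**
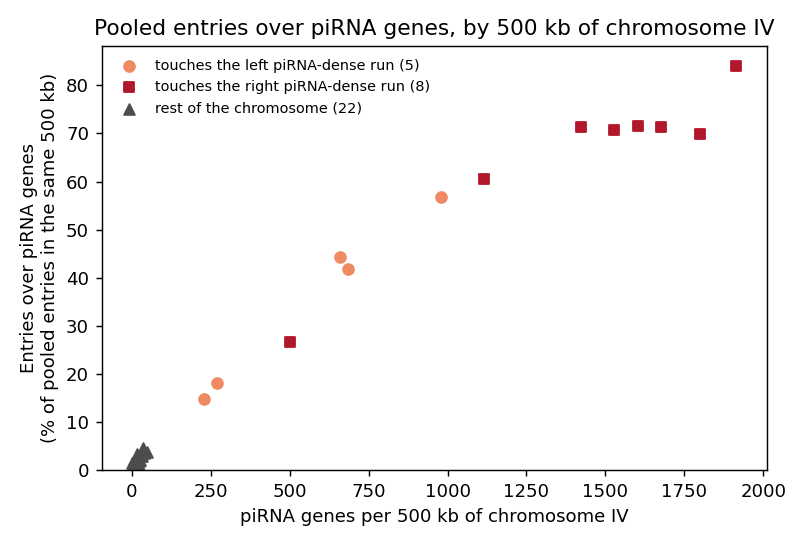
Each point is 500 kb of chromosome IV, placed by its number of piRNA genes (horizontal axis) and by the percentage of its pooled entries that overlap one (vertical axis), with color and shape for the 2 runs of piRNA-dense bins and the rest. By the overlap rule the share climbs with the number of genes, to 84.0% where the 500 kb hold 1915 piRNA genes. It stays under 5% in the 22 points outside the runs.

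Within a region, 606 of the 1351 overlapped 1 piRNA gene, 410 overlapped 2 and 335 (24.8%) overlapped 3 or more, with a maximum of 7. Many of these genes are overlapping, staggered annotations whose starts differ by 1 to a few bases, as with 21ur-7446 and 21ur-7893. The number of genes is therefore not a number of separate loci. Regions with 3 or more genes had a median rank of 14985 and regions with 1 had 15166.5, where rank 1 of the 30000 pooled entries has the highest signal. That signal (column 7 of the list) is the authors' own value, whose formula and scale the sources used here do not state. It serves only to rank entries within a list.

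Entries lay over piRNA genes more often than over the dense bins as a whole. In the dense bins, pooled entries covered 2550 of 14345 piRNA genes (17.8%, 17.2 to 18.4%) and 37680 of 285714 adjoining windows of 21 bp (13.2%), which tile these bins with the genes included. The replicate lists gave 15.2% of genes against 12.1% of windows in replicate 1, and 19.6% against 13.995% in replicate 2. Entries had a median width of 376 bp in replicate 2 and 344 bp in replicate 1. Wider entries overlap more genes and more windows, so the shares of the 2 replicates are not directly comparable. Both runs had this order, with 17.6% against 13.2% on the left and 17.8% against 13.1% on the right in the pooled list.

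The difference was also present within the classes from 20 to 35% GC, where most windows with a piRNA gene lie. The dense bins were also divided into adjoining windows of 344 bp, the width of a pooled entry. Of windows with a piRNA gene, 2487 of 7893 (31.5%) were overlapped by a pooled entry, against 1728 of 9548 (18.1%) without one. Among windows of 25 to 30% GC, the shares were 34.9% (33.3 to 36.4%) with a piRNA gene and 23.7% (21.8 to 25.8%) without. They were 29.1% (27.2 to 31.1%) and 22.2% (20.7 to 23.8%) at 30 to 35% GC, and 36.5% (33.7 to 39.4%) and 23.2% (18.9 to 28.1%) at 20 to 25%. At 35 to 40% GC the intervals overlapped, at 19.2% (16.5 to 22.2%) with a piRNA gene and 16.9% (15.4 to 18.4%) without. They also overlapped at 40 to 45%, with 14.7% (10.2 to 20.7%) and 11.04% (9.56 to 12.7%), and at 45 to 50%, with 10.7% (3.71 to 27.2%) and 9.05% (7.03 to 11.6%). At 15 to 20% the order was the other way, with 4 of 20 windows with a piRNA gene and 5 of 22 without. The windows were not matched for nearness to coding starts or for coding exons, and the cause of the difference was not tested. These windows were added after other results of these data were seen.

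None of the 1351 regions on IV reached the optimal list. The count of 0 allows a share of up to 0.222%, from 3 counts, or 0.284% by the Wilson interval. Other entries of IV had 98 of 4241 (2.31%, 1.90 to 2.81%), and over all 5592 entries of IV the share was 1.75%. Other entries inside the dense bins had 22 of 925 in the optimal list (2.38%, 1.58 to 3.57%), so the optimal peaks of the dense bins lay between piRNA genes. In the left run the counts were 0 of 325 over piRNA genes and 11 of 490 elsewhere, and in the right run 0 of 970 and 14 of 431. An entry counts as optimal here when it overlaps an optimal peak, and requiring the same start and end left 0 regions and 83 other entries (1.96%). None of the regions had a −log10 q above 2, against 70 other entries of IV (1.65%).

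The highest signal among the regions of IV was 26.7, below the lowest signal of any optimal peak, 29.6. That highest region, rank 613, lay at chrIV:5137852-5138195 in an intron of soc-2, which encodes a leucine-rich repeat scaffold of Ras signaling, and overlapped 21ur-15344 at its edge. It ranked 1029 in replicate 1 and 1101 in replicate 2. Ranks 683, 706 and 720 were near mgl-3, a metabotropic glutamate receptor gene, near nhr-34, a nuclear hormone receptor gene, and 5166 bp from the start of K01H12.4. These last 3 ranked 8748, 5500 and 14991 in replicate 1 and 393, 763 and 470 in replicate 2, so their place in the pooled list went with replicate 2. These 4 were chosen after their values were seen. By contrast, the other entries of the dense bins led with rank 13 near the start of dld-1, which encodes dihydrolipoamide dehydrogenase, rank 41 near hsp-1 and rank 46 near eelo-2, with signals of 86.5, 66.0 and 63.9.

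The regions that hold most piRNA genes were spread over the list and had no common rank. Of the 6 with 7 genes each, the 5 of highest signal ranked 2175 (chrIV:16600154-16600497, the intergenic example above), 8568 (chrIV:16054272-16054615), 13981 (chrIV:14241693-14242036, near the start of Y64G10A.10), 15892 (chrIV:13953993-13954336, intron of Y37A1A.4) and 25888 (chrIV:15606454-15606797, which holds 21ur-94). Only the first was overlapped by entries of both replicates, at rank 14444 in replicate 1 and 9198 in replicate 2. Those ranked 8568 and 13981 were overlapped in replicate 2 only, that ranked 25888 in replicate 1 only, and that ranked 15892 in neither.

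Off chromosome IV, 1 of 86 regions over piRNA genes was in the optimal list (1.16%, 0.206 to 6.30%), against 457 of the 24322 other entries there (1.88%). It was chrI:4584655-4584998 over 21ur-11631, with its summit 288 bp from the start of rpl-24.1, a ribosomal protein gene. Its signal was 37.9, its pooled rank 241 and its −log10 q 2.21, and it ranked 183 in replicate 1 and 406 in replicate 2. Its GC content of 36.6% was above the 31.98% median of regions off IV.

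The count of 0 lay close to a boundary set by the overlap rule. Just inside the rule, the 77 regions that overlapped less than a whole piRNA gene had a median rank of 16045 and 0 in the optimal list. That count allows a share of up to 3.90% from 3 counts, or 4.75% by the Wilson interval. The 1274 that held a whole gene had a median rank of 15050 and also 0, which allows up to 0.235%, or 0.301% by the Wilson interval. Just outside it, among other entries of IV within 100 bp of a piRNA gene, 3 of 265 (1.13%, 0.386 to 3.27%) were in the optimal list, against 15 of 555 (2.70%) between 100 and 1000 bp and 80 of 3421 (2.34%) beyond. The 3 missed 21ur-3140 by 16 bp (chrIV:5953016-5953359, rank 166), 21ur-8870 by 19 bp (chrIV:6839114-6839457, rank 121) and 21ur-8767 by 81 bp (chrIV:15696760-15697103, rank 205).

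The replicate lists, whose entries carry no optimal call, gave small counts rather than 0. Taking the 478 highest entries of each list, the rule found 3 of 1169 regions of IV in replicate 1 (0.257%, 0.0873 to 0.752%) and 3 of 1423 in replicate 2 (0.211%, 0.0717 to 0.618%). Other entries of IV had 84 of 4301 (1.95%) in replicate 1 and 86 of 4207 (2.04%) in replicate 2. One of the 6, rank 44 in replicate 2 (chrIV:6839101-6839476), is the wider form of the entry that missed 21ur-8870 by 19 bp in the pooled list. Another, rank 336 in replicate 1 over 21ur-2881 (chrIV:15882022-15882365), had no pooled entry and no entry of replicate 2 over it.

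Lower in the list the regions differed less from the rest of IV. Of the regions, 84 (6.22%, 5.05 to 7.63%) were among the 3000 highest pooled entries, against 493 of the other entries (11.6%, 10.7 to 12.6%), and over all entries of IV the share was 10.3%. Among the 1000 highest the counts were 8 (0.592%) and 173 (4.08%). Outside the 2 runs they were 3 of 56 regions (5.36%, 1.84 to 14.6%) and 133 of 3320 others (4.01%). The 3000 highest held 6 of these 56 regions (10.7%) and 385 of these others (11.6%). These 56 regions are too few to show whether the shortage holds outside the runs. The second set of 3000 entries held 175 of the regions (13.0%) and 406 of the others (9.57%). The third set had the other order, with 125 of the regions (9.25%) and 442 of the others (10.4%). Ranks to 15000 held 49.6% (46.9 to 52.3%) of the regions and 52.0% (50.5 to 53.5%) of the others. The median rank was 15089 over piRNA genes (quartiles 7984.5 and 22102.5), against 14430 for the others (7142 and 22244). The medians differed by 659 places in the pooled list, 518 in replicate 1 and -140 in replicate 2, where regions over piRNA genes ranked higher, so the order of the medians did not hold in both replicates.

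**Figure D2:**
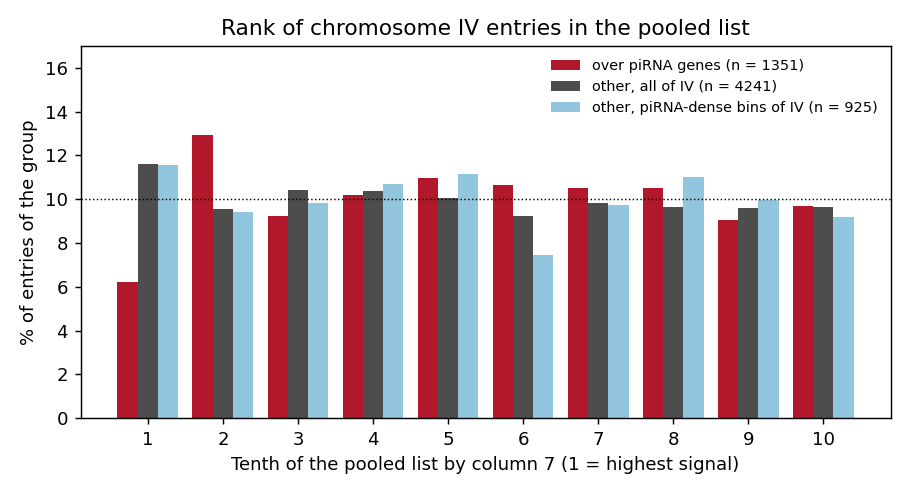
Bars give, for successive sets of 3000 pooled entries by signal (horizontal axis, 1 the highest), the percentage of the entries of a group that fall in it (vertical axis), for entries over piRNA genes, other entries of IV and other entries of the piRNA-dense bins. The dotted line is 10%, and the first 2 sets hold 6.22% and 13.0% of entries over piRNA genes, against 11.6% and 9.57% of other entries of IV.

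Regions over piRNA genes were poor in G and C. Their median GC content was 28.2% (quartiles 25.9 and 30.8%), against 33.1% (29.7 and 36.6%) for other entries of IV and 32.8% for other entries of the dense bins. The regions had the lower median in all 13 stretches of 500 kb with 20 or more of them. The medians were 28.5% against 34.01% in replicate 1 and 28.2% against 33.0% in replicate 2. Low GC was also found in sequence chosen without regard to the lists: windows of 344 bp in the dense bins had a median of 28.8% with a piRNA gene and 35.2% without. The drop was sharpest just before the genes, where the 100 bases upstream averaged 26.1% GC, against 32.8% over the dense bins.

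Share in the optimal list climbed with GC content among other entries of IV. It was 0 of 185 at 20 to 25% GC, 5 of 949 (0.527%) at 25 to 30%, 22 of 1598 (1.38%) at 30 to 35%, 32 of 1012 (3.16%) at 35 to 40%, 19 of 369 (5.15%) at 40 to 45% and 11 of 83 (13.3%) at 45 to 50%. Regions over piRNA genes had 0 of 196, 0 of 726, 0 of 328, 0 of 82, 0 of 16 and 0 of 1 in the same classes. Among the 4 classes from 20 to 40% GC, only at 30 to 35% did the interval of the difference leave out 0 (-1.38 percentage points, -2.08 to -0.129). At 25 to 30%, where most regions lie, it was -0.527 points with an interval of -1.23 to 0.0798.

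Weighted to the GC classes of the regions, other entries of IV would give 0.880% in the optimal list, or 11.9 entries, and weighted to GC class and nearness to a coding start together 0.641%, or 8.66 entries, against 0 observed. For the 3000 highest entries, the same weights gave 8.38% and 7.55%, against 6.22% (5.05 to 7.63%) observed. Other entries of the dense bins alone gave 0.811% in the optimal list and 7.02% in the 3000 highest, weighted by GC class. Both shares moved with GC content among other entries of IV. Among the regions, the share in the 3000 highest was 6.12% at 20 to 25% GC and 6.89% at 25 to 30%. It was 5.49% at 30 to 35% and 4.88% at 35 to 40%, and the optimal share was 0 in each of these classes. The part of GC content in these shares was not tested.

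**Figure D3:**
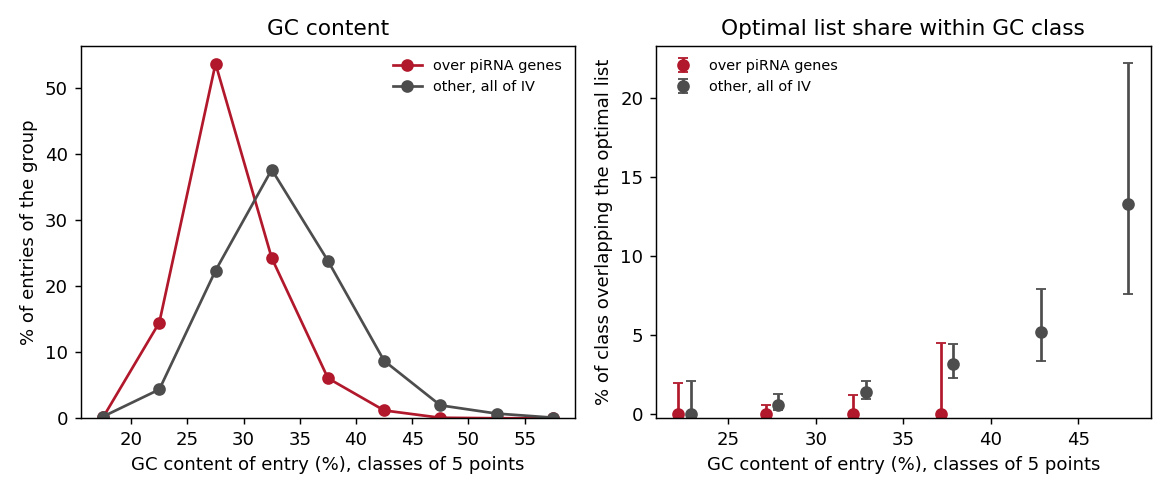
Left, the percentage of entries of each group (vertical axis) in classes of 5 points of GC content (horizontal axis), for entries over piRNA genes and other entries of IV. Right, the percentage of each class that overlaps the optimal list, with 95% Wilson intervals as bars, for classes of 50 or more entries: entries over piRNA genes are at 0 in each class, while other entries climb from 0 of 185 at 20 to 25% GC to 13.3% (11 of 83) at 45 to 50%.

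Few regions lay near the start of a protein-coding gene. The overlap rule ties regions to where piRNA genes lie, so it may largely set these shares. Where piRNA genes lie relative to coding starts was not measured apart from the lists. Summits within 500 bp of a coding transcript start made up 177 of 1351 regions (13.1%, 11.4 to 15.01%), against 1263 of 4241 other entries (29.8%, 28.4 to 31.2%). Intergenic summits made up 747 regions (55.3%, 52.6 to 57.9%), against 1246 others (29.4%, 28.0 to 30.8%). Among other entries of the dense bins, 27.1% were near a coding start and 34.4% were intergenic. Introns held 342 regions (25.3%) and 1105 others (26.1%), and coding exons 45 (3.33%) and 394 (9.29%). The median distance to the nearest coding start was 2456 bp over piRNA genes and 1100 bp elsewhere on IV. Near a coding start, 7 of the 177 regions (3.95%) were among the 3000 highest entries, against 214 of 1263 others (16.9%), and 0 were in the optimal list, against 49 (3.88%). Among intergenic summits the counts in the optimal list were 0 of 747 and 32 of 1246 (2.57%), so the order of the groups was the same away from coding starts.

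The piRNA upstream motif CTGTTTCA lay within 100 bp of the summit, on either strand, in 398 of 1351 regions (29.5%, 27.1 to 31.9%), against 74 of 4241 other entries (1.74%, 1.39 to 2.18%). It was present in 6.18% of all windows of that length on IV and in 15.3% of those in the dense bins. Its core GTTTC, which it contains, was in 78.2% of regions and 47.7% of other entries, against 50.6% of all windows of IV and 60.6% of those in the dense bins. The rule selects piRNA genes and so selects the letters that precede them, and a match is a description rather than a binding site. Among regions in the 3000 highest entries, 18 of 84 had the motif (21.4%, 14.01 to 31.3%), an interval that holds the share of all regions. Within the 60 bases before the gene, covered and other piRNA genes of IV carried it at shares whose intervals overlapped, 889 of 2604 (34.1%, 32.3 to 35.98%) and 4216 of 12110 (34.8%, 33.97 to 35.7%). In both groups it began a median of 46 bases before the gene, with quartiles of 45 and 47.

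Letters linked with ZEB-class proteins and with the optimal peaks were rarer in the regions. CAGGTA or CAGGTG, the E-box known for vertebrate ZEB proteins, was within 100 bp of the summit on either strand in 85 regions (6.29%, 5.12 to 7.71%), against 361 other entries (8.51%, 7.71 to 9.39%) and 9.68% of all windows of IV. It was in 3 of the 98 other entries of IV in the optimal list (3.06%). GAGAGA was in 86 regions (6.37%), against 603 other entries (14.2%), 9.73% of all windows and 44 of the 98 optimal entries (44.9%). A run of TTTTTTTT, or its complement, was in 509 regions (37.7%), against 1166 other entries (27.5%) and 24.4% of all windows. Of windows in the dense bins, 8.52% held CAGGTA or CAGGTG, 8.57% held GAGAGA and 28.6% held the run of T. None of these shares was adjusted for the lower GC content of the regions.

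Counted over all piRNA genes of the dense bins, summits lay around them broadly and were most frequent at a different distance in each list. The 14345 genes of the dense bins were aligned by 5′ end, and summits were counted per 100 bp on the gene's strand. A summit was counted once for every gene in reach, and the genes are clustered and staggered. The counts are therefore spread over many steps and cannot show whether summits gather at 1 distance from single genes. In the pooled list the count was highest from 300 to 201 bp upstream, at 54.7 summits per 1000 genes, and was 53.4 in the 100 bp just upstream, against 42.9 at its lowest, from 400 to 499 bp downstream. The mean over the dense bins was 37.1 per 1000 windows. Replicate 2 was highest in the 100 bp just upstream, at 55.5, while replicate 1 had 39.0 there and its highest value, 45.5, from 200 to 299 bp downstream. The place of the highest count thus differed between the replicates, and all 20 steps of each list were above that list's mean over the dense bins. The repeated counting gives more weight to stretches with many genes, so that excess cannot be read as one around single genes.

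**Figure D4:**
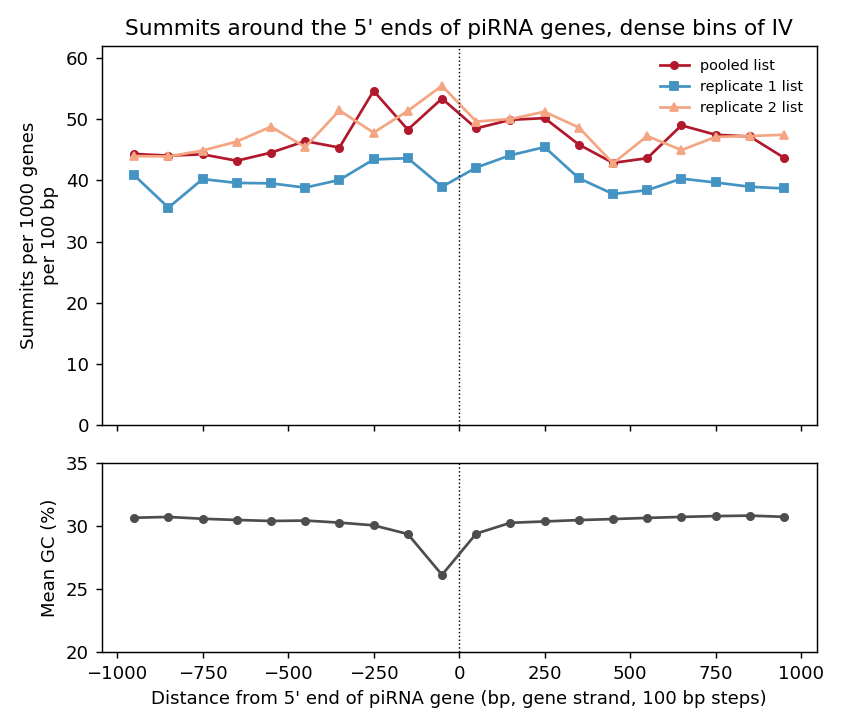
Top, summits per 1000 piRNA genes in steps of 100 bp (vertical axis) by distance from the gene's 5′ end (horizontal axis, negative upstream), for the pooled list and both replicate lists in the dense bins. Bottom, mean GC content in the same steps: it dips to 26.1% just upstream, where replicate 2 has its highest count (55.5) and replicate 1 does not (39.0).

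The replicates covered the regions about as often as other entries of IV. Of the 1351 regions, 711 (52.6%, 49.96 to 55.3%) were overlapped by an entry of replicate 1 and 942 (69.7%, 67.2 to 72.1%) by one of replicate 2, against 56.1% and 69.0% of the other entries. Entries of both replicates overlapped 428 regions (31.7%, 29.3 to 34.2%) and 34.3% (32.8 to 35.7%) of the others, and neither replicate overlapped 126 regions (9.33%) and 9.10% of the others. Among the 3000 highest pooled entries, both replicates overlapped 64 of 84 regions (76.2%, 66.1 to 84.0%) and 399 of 493 others (80.9%, 77.2 to 84.2%). The pooled list was called on both replicates together, so these overlaps are not independent of it. For scale, pooled entries overlapped 20.8% of all 344 bp windows of IV, and 31.5% of dense-bin windows with a piRNA gene. Entries of replicate 2 are wider, so the shares of the 2 replicates are not directly comparable.

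Regions over piRNA genes lacked much of the spacing of A and T runs seen elsewhere on the chromosome. Runs of 4 or more A, or of 4 or more T, recur about once per helical turn in much of the Caenorhabditis elegans genome. Entries over piRNA genes held 14.1 such runs each, against 12.6 in other entries of IV. Pairs of runs about 10, 20 or 30 bp apart outnumbered pairs about 15, 25 or 35 bp apart by a ratio of 1.11 over piRNA genes, against 1.54 in other entries of IV and 1.55 in other entries of the dense bins. At 25 to 30% GC the ratios were 1.12 and 1.52. Windows of the dense bins chosen without the lists gave 1.13 with a piRNA gene and 1.44 without. Among the windows with a piRNA gene, the ratio was 1.12 in the 2487 overlapped by a pooled entry and 1.14 in the 5406 that were not. The measure was chosen after other results of these data were seen.

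**Figure D5:**
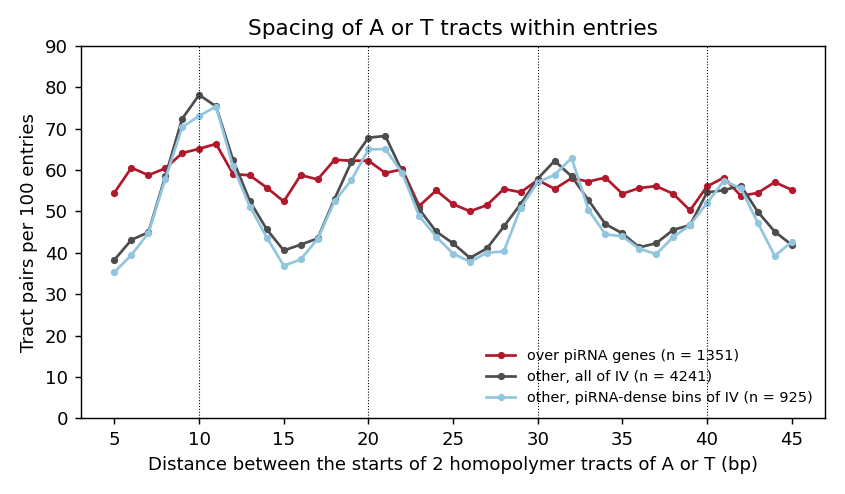
Pairs of A or T runs per 100 entries (vertical axis) by the distance between their starts in bp (horizontal axis), with dotted lines every 10 bp, for entries over piRNA genes, other entries of IV and other entries of the dense bins. Entries over piRNA genes are nearly level, with a ratio of 1.11, while other entries of IV have clear maxima near 10, 20 and 30 bp and a ratio of 1.54.

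Genes for the piRNA pathway were compared with all protein-coding genes from a list of 59 names, 56 of which matched the gene models. A pooled entry had its summit within 500 bp of a start in 20 of 56 (35.7%), against 35.5% of all 19865 coding genes. For the 3000 highest entries the counts were 4 of 56 (7.14%), at mut-15, rde-8, simr-1 and nrde-4, against 7.002%. For the optimal list it was 1 of 56 (1.79%), against 1.59%, so the list stood near the background at each level. That 1 gene was mut-15 on V, which takes part in the making of secondary small RNAs, with an entry of rank 388 and signal 32.2 whose summit lay 253 bp from its start.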

How the data were processed

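Chromatin immunoprecipitation sequencing of eGFP-ZAG-1 was used in 2 replicates of 1 group, per the labels. The authors deposited peak lists on ce11 with a signal value and a −log10 q-value for each entry. The sources used here do not give the aligner, peak caller, threshold or read depth, so the precision that depth gives is unknown. Lists were called per replicate and on the pooled replicates, per the release notes deposited with them. Their ce10 versions were not used.

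Entries were compared with WBcel235 (the same build) and Ensembl release 115 gene models, in Python 3.11.15 with pandas 2.3.3, numpy 2.4.6 and scipy 1.17.1. A region was a pooled entry that overlapped a gene of biotype piRNA by 1 bp or more. Entries were ranked by signal, with tied values sharing the mean rank, and GC content was taken over the whole entry. No entry was filtered out, and 3 pooled entries narrower than 344 bp, none over a piRNA gene, were kept. Shares have Wilson intervals at 95%, intervals of differences are Newcombe's, and no test was run, since regions are not replicates and there was 1 group. Of the calculations, the overlap counts and the search for CTGTTTCA were tested on simulated data. Alternatives were other overlap rules, comparison entries, GC classes, thresholds, window sizes and each replicate list alone. Regions named are those in the optimal list and the 5 with most piRNA genes, with ties taken by rank. Regions of highest signal on IV, the optimal peaks nearest to a piRNA gene and high entries of the replicate lists were named after their values were seen. The regions, gene list and measures were chosen with earlier results of these data known. A region among the highest-ranked ones of IV is not reported here.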

Additional observations from a re-analysis of the deposited data

How the results depend on the processing

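The cause of each change below was not tested. Values are the share or median over piRNA genes minus that of other entries of IV, in percentage points unless said. The coverage difference is instead that of piRNA genes minus all 21 bp windows of the dense bins. The shares in dense bins and overlapped by both replicates are plain shares. For the optimal list (-2.31), the difference was -1.65 without summits near a coding start, -1.13 for the upper part of the optimal list by signal, -1.65 for −log10 q above 2 and -5.41 for the 3000 highest entries. Within GC classes it was 0 at 20 to 25%, -0.527 at 25 to 30%, -1.38 at 30 to 35% and -3.16 at 35 to 40%. The list of 1 replicate alone gave -1.83 to -1.70. The median rank difference (659 places) was 95 against all chromosomes, -140 to 518 places for 1 replicate alone and -931 places at 20 to 25% GC, so it turned in replicate 2 and in that class. The GC difference (-4.94) was -5.47 within 100 bp and -5.94 within 50 bp of the summit, and -5.52 to -4.79 for 1 replicate alone. The share in dense bins (96.2%) was 97.2% with 10 and 94.1% with 50 gene starts per bin. The coverage difference (4.59) was 3.08 to 5.63 for 1 replicate alone. The share overlapped by both replicates (31.7%) was 21.5% when the overlap had to reach 0.5 of the narrower entry. The motif difference (27.7) was 14.7 within 50 bp, 42.5 over the whole entry and 30.5 for GTTTC. The coding-start difference (-16.7) was -11.5 at 250 bp and -22.2 at 1000 bp. In all, 37 alternative values kept close to the main value, 23 moved and 2 reversed. For shares and their differences, close meant inside the 95% interval of the main value. For the medians it meant within the SD between the 2 replicate lists, 465 places for rank and 0.520 points for GC. This is a wide band: 391.5 places counted as close to 659. Numbers of regions from 1052 to 1516 also counted as close to 1437.

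No paired analysis was possible because there was 1 group of samples. Classes of GC content were not used for the GC difference, which they fix. Leaving out the 500 kb of IV with most entries, and requiring the same start and end as an optimal peak, were chosen after seeing the data and moved no result past its spread. With 2 replicates and no depths, a difference in the number of reads between the libraries cannot be told apart from other differences between the replicate lists. One of those is the width of entries, which are wider in replicate 2.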
